A study of Mus musculus with 12 samples.

Results

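The transcriptome of wild-type LSKs at day 9 after a single injection of 5-fluorouracil (5-FU) was compared with that of LSKs from untreated wild-type littermates. LSKs are the Lin- Sca-1+ c-Kit+ cells of the bone marrow (BM), the fraction that holds the hematopoietic stem cells (HSCs) and the multipotent progenitors. The comparison used 6 of the 12 libraries of the series, 3 from untreated mice and 3 from mice given 150 mg/kg 5-FU intraperitoneally. The other 6 libraries came from *Tespa1*-/- LSKs, 3 untreated and 3 at the same day after 5-FU, and served here only to show where the wild-type response differed from theirs. The *Tespa1*-/- mice carry a germline deletion and were backcrossed to C57BL/6 for more than 6 generations, and the study's mice were male and 8 to 10 weeks old, apart from middle-aged mice of 12 months, with no age in the labels of these libraries. Of the 53465 genes counted, 17002 had enough reads in the 6 wild-type libraries to be tested, and all of them were examined for direction and size before lineages and pathways were read out from 40 gene lists.

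5-FU is an antimetabolite that blocks thymidylate synthase and is built into RNA and DNA, and it kills cycling progenitors while most dormant HSCs survive. The marrow empties within days, after which the surviving stem cells enter the cycle, refill the progenitor pool and later return to rest. An LSK sort takes whatever passes the surface gate at the time of harvest, so that a bulk profile reflects both the mixture of HSCs, multipotent and lineage-primed progenitors and the state of each cell. In such bulk samples, fewer cells of a type and less RNA per cell cannot be told apart.

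The libraries held 22451079 to 28275079 gene counts each. A level of 3 counts, taken as the detection limit, equals 0.107 to 0.136 CPM (counts scaled to a fixed library total) and covers counting error only. The first principal component held 45.8% of the variance over 11165 genes and separated the treatments, and the second, with 16.0%, set untreated replicate 3 apart from untreated replicate 2. Reads from the mitochondrial genome took 9.42 to 10.2% of counts in untreated and 9.47 to 9.66% in 5-FU libraries. Replicates differed by more than sampling noise, so each was kept as a sample. The labels do not say whether libraries of a group came from separate mice, and the p-values measure the spread between these libraries only.

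The surface gate was visible in the counts. Kit, the receptor for stem cell factor, stood at 413, 433 and 389 CPM in untreated libraries and at 476, 463 and 472 CPM after 5-FU, without overlap (log2 fold change 0.19 ± 0.05 SE, adjusted p = 0.051). Ly6a, which encodes Sca-1, stood at 21.0, 26.3 and 18.5 CPM in untreated and at 45.5, 21.3 and 41.9 CPM in 5-FU libraries, so that replicate 2 after 5-FU lay within the untreated range and the rise missed the threshold (0.72 ± 0.27, adjusted p = 0.148). Without that library the gene was called, at a log2 fold change of 0.99. Of the lineage antigens that the sort removes, Cd3e reached at most 0.0455 CPM and Ly6g 0.249 CPM in any library. Itgam, the gene of CD11b, was present at 19 to 32.0 CPM in untreated and 28.4 to 36.2 CPM in 5-FU libraries (0.29 ± 0.20, adjusted p = 0.459). Ptprc, whose B220 isoform is the B-cell antigen of the cocktail, is expressed by all leukocytes and gave 300 to 363 and 262 to 333 CPM.

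The response was moderate in size and ran in both directions. With the call set at a Benjamini-Hochberg adjusted p under 0.05 and more than 1.5-fold change in edgeR, 466 genes (2.74% of those tested) were higher and 287 (1.69%) were lower at day 9, which is 4.43% in all. By the adjusted p alone, falls outnumbered rises, with 641 genes higher (3.77%) and 711 lower (4.18%). In 465 of the genes called higher and 286 of those called lower, the 3 libraries of one group did not overlap with the 3 of the other, against 14.1% and 14.3% of all genes tested, the exceptions being Gpx3 and Alb, the latter named after its values were seen. The median change was 1.19 on the log2 scale among genes called higher and 0.992 in size among genes called lower, while the median over all genes tested was 0.01. Rises were the larger at the upper end: 106 of the higher genes (22.7%) and 46 of the lower genes (16.0%) passed 4-fold, and 25 of the higher and 22 of the lower genes had at most 3 counts in every library of the other group. The direction also differed with expression level. Below a mean of 5 CPM, 98 genes were higher and 45 lower of 5837 tested. Between 5 and 50 CPM, 289 were higher and 146 lower of 7238. At 50 CPM and over, the balance turned, with 79 higher and 96 lower of 3927. Protein-coding genes made up 404 of the rises and 230 of the falls, and transcripts of the TEC class, loci annotated on weak evidence, gave 8 rises and 24 falls of 959 tested. Leaving out 5-FU replicate 1 or 2 lowered the number of higher genes to 289 and 291. Leaving out any library left 213 to 283 lower genes, and 380 of the 753 calls held in each of the 6 fits that leave a library out.

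**Figure D1:**
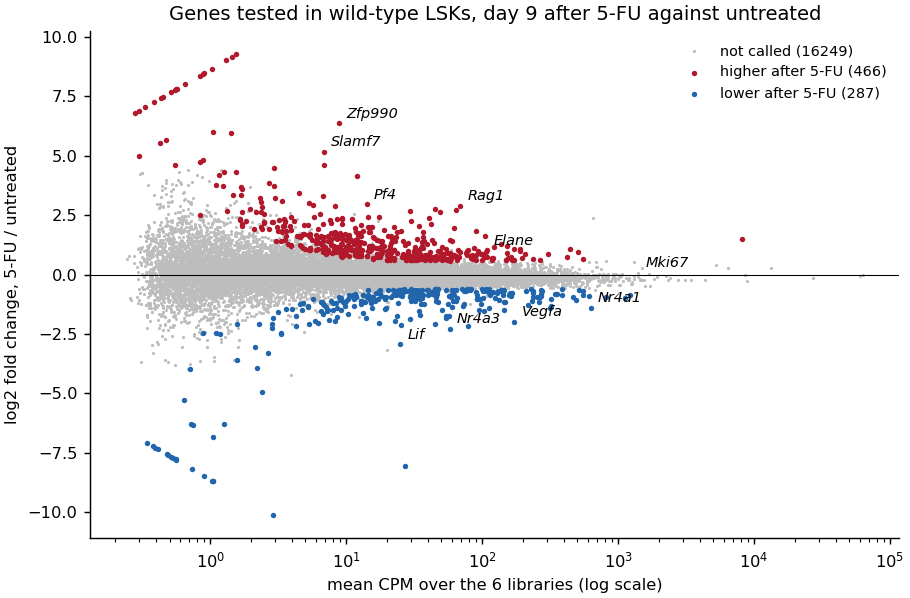
Each point is 1 of 17002 genes tested, with its mean CPM over the 6 wild-type libraries on a log axis and the log2 fold change of 5-FU over untreated on the other. The 466 genes called higher (red) have a median level of 14.4 CPM and the 287 called lower (blue) one of 29.1 CPM, and the diagonal rows at the left edge are genes with hardly any count in one group, whose fold change is set by the model's prior count.

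The 10 largest rises among genes with a mean of at least 5 CPM and no overlap between groups came from several programs. Zfp990, a zinc finger gene on chromosome 4 (145510759 to 145539188, GRCm38), went from 0.179, 0.446 and 0 CPM to 13.7, 24.1 and 14.3 CPM (log2 fold change 6.35 ± 0.62, adjusted p = 0.000353). Zinc finger genes of this cluster are close copies of each other, so its reads may be shared with its neighbours. Slamf7, a surface receptor of the SLAM family, rose from 0.502, 0.58 and 0 CPM to 12.5, 13.3 and 14.1 CPM (5.16 ± 0.62). Both were at or near the detection limit in untreated replicate 3 and clear of it in every 5-FU library. Chst3, a sulfotransferase that modifies chondroitin, rose 17.9-fold, from 1.25 ± 0.597 to 22.7 ± 4.34 CPM (SD, n = 3), and Tnfrsf19, a TNF receptor family member, rose 9.98-fold, from 1.21 ± 0.639 to 12.2 ± 1.5 CPM.

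The rest of the 10 were the platelet chemokine Pf4 (7.76-fold), the interferon-induced Ifit1bl1 (7.99-fold), the surrogate light chain gene Vpreb3 (7.48-fold), the recombinase Rag1 (7.47-fold), the WNT effector Lef1 (6.68-fold) and the processed pseudogene Gm12057 (7.51-fold), which lies on the exons of B3gnt2 and may share its reads. Lef1 stood at 10.0, 18.6 and 6.69 CPM in untreated libraries and at 76.5, 78.9 and 80.1 CPM after 5-FU.

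The 10 largest falls were led by signalling and cytokine genes. Lif, a cytokine of the IL-6 family, fell from 48.8, 52.9 and 30.7 CPM to 4.67, 9.07 and 3.45 CPM (log2 fold change −2.94 ± 0.35, adjusted p = 0.00117). The orphan nuclear receptor Nr4a3 fell from 106, 111 and 69.3 CPM to 18, 20.7 and 20.8 CPM (−2.27 ± 0.18, adjusted p = 9.29e-05). Cxcl2, a neutrophil-attracting chemokine, fell from 129, 123 and 132 CPM to 24.7, 24.1 and 37.8 CPM (−2.15 ± 0.16), and Vegfa, the vascular growth factor, from 309, 307 and 210 CPM to 55.5, 76.6 and 75.4 CPM (−1.99 ± 0.17). For Lif, Nr4a3 and Vegfa, untreated replicate 3 was the lowest of its group and still lay above every 5-FU library. Shisa8 fell 4.06-fold, and Slc35d3, whose product takes part in platelet dense granule formation, 4.33-fold. Emp1, a membrane protein gene, was 4.24-fold lower, a call lost without 5-FU replicate 1 (log2 fold change −1.91 there). AC140462.1 and Gm49310 are TEC transcripts, of which the first shares exons with Arhgef3.

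Read out by list, the most genes called higher were in the interferon (25 of 66 tested) and erythroid (16 of 35) lists. The stem cell (14 of 41), platelet (12 of 29), B-lymphoid (11 of 21) and mast cell (7 of 15) lists followed. The most called lower were in the immediate-early (22 of 43) and inflammatory (13 of 37) lists. The lists differ in size, and of all genes tested 2.74% were called higher and 1.69% lower. The lists hold 1310 symbols, of which 1217 were tested and 111 stand in more than 1 list. The median log2 fold change of the tested members was highest for megakaryocyte and platelet genes (1.18), eosinophil, basophil and mast cell genes (1.04), B-lymphoid genes (1.03), later neutrophil genes (0.85), erythroid genes (0.79), HSC regulators (0.54) and interferon-stimulated genes (0.50). The value of the later neutrophil genes moved with single libraries and with the count minimum, to 0.10 without 5-FU replicate 1, 0.11 where every library had at least 10 counts, 0.49 without untreated replicate 3 and 1.27 without untreated replicate 2. It was lowest for immediate-early genes (−0.81), genes of the mitochondrial genome (−0.41), NF-kB and inflammatory genes (−0.38) and lymphoid-primed progenitor genes (−0.31). The lists of S-phase genes, G2/M genes, oxidative phosphorylation, glycolysis and the proteasome had medians between −0.08 and 0.02.

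**Figure D2:**
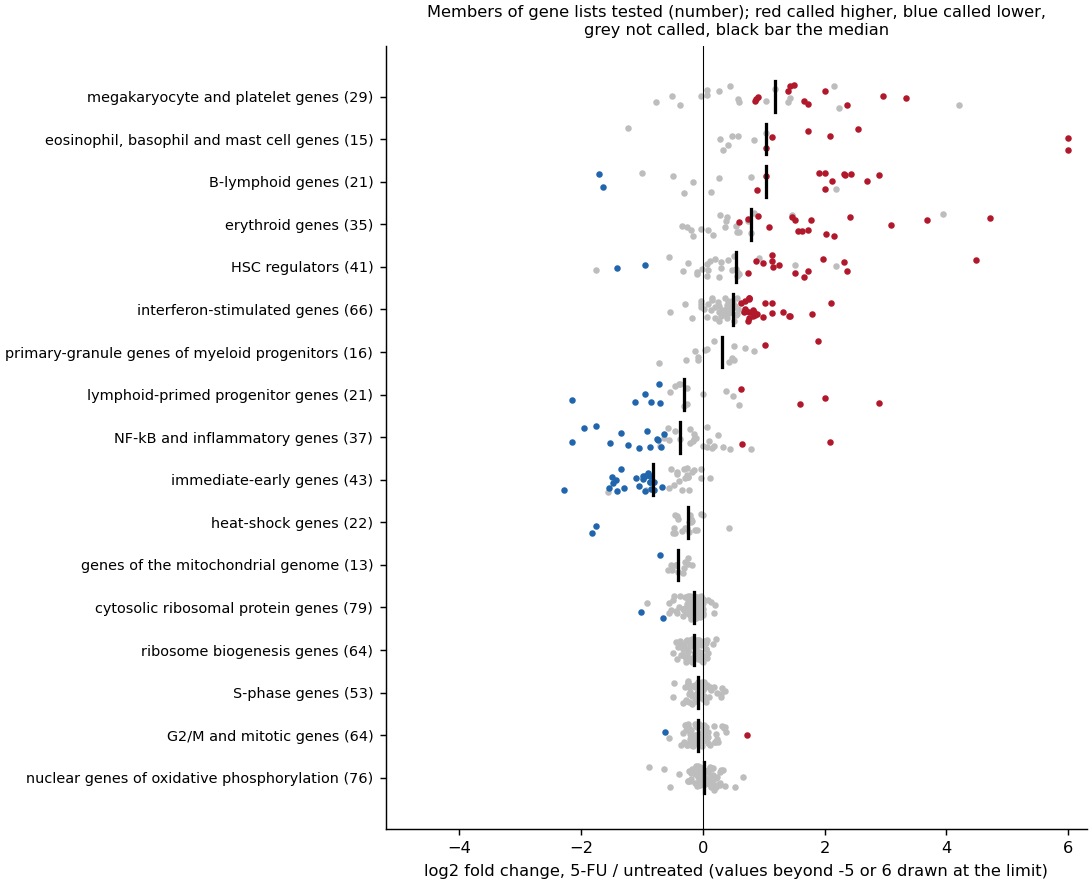
Log2 fold change of 5-FU over untreated for the tested members (number in brackets) of 17 gene lists, with the median as a black bar. Members called higher (red) fill the right side of the platelet, mast cell, B-lymphoid, erythroid, stem cell and interferon lists, members called lower (blue) the left side of the immediate-early and NF-kB lists, and the cell cycle and ribosome lists stay close to 0.

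Several transcription factors and surface markers of the most immature cells were higher in LSKs at day 9. Of 41 HSC regulators, 14 rose and 2 fell, where 2.74% and 1.69% of all genes did. The share of counts of the whole list overlapped, at 0.347 to 0.368% in untreated and 0.350 to 0.355% in 5-FU libraries. Mecom, which encodes the stem cell factor EVI1, stood at 32.1, 32.7 and 30.2 CPM in untreated and 70.8, 58.1 and 59.0 CPM in 5-FU libraries (0.98 ± 0.11, adjusted p = 0.000762). Gata2, a zinc finger factor needed for stem cell survival, rose from 72.5, 81.8 and 72.9 CPM to 146, 178 and 177 CPM (1.14 ± 0.10). Every 5-FU library lay above every untreated one for both of these factors. Tal1, a basic helix-loop-helix factor of stem and erythroid cells, rose by 0.75 ± 0.09. Tek, the receptor TIE2 through which niche angiopoietin holds HSCs at rest, rose 3.94-fold, from 5.88, 6.79 and 5.91 CPM to 23.5, 25.1 and 24.6 CPM. Slamf1 (CD150), the surface marker used to sort long-term HSCs, rose from 3.58, 4.6 and 4.19 CPM to 9.84, 15.2 and 16.0 CPM (1.73 ± 0.25, adjusted p = 0.00326).

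Other defining stem cell genes were not called. Hlf went from 64.9, 62.2 and 84.1 CPM to 99.7, 88.5 and 120 CPM without overlap (0.54 ± 0.14, adjusted p = 0.0502), and was called without untreated replicate 3 (log2 fold change 0.69). Procr, the gene of EPCR, had 5.37, 6.25 and 3.55 CPM in untreated and 6.94, 9.69 and 12.3 CPM in 5-FU libraries (0.93 ± 0.30, adjusted p = 0.101), and was called by DESeq2 and in the fit of all 12 libraries. Meis1 did not pass either (0.20 ± 0.07, adjusted p = 0.145). Cd34, absent from the surface of adult long-term HSCs, was lower, from 384, 414 and 399 CPM to 277, 265 and 265 CPM (−0.57 ± 0.05, adjusted p = 0.000213), short of the fold change threshold. Without untreated replicate 1 or 5-FU replicate 1 it passed that threshold as well, at −0.59 and −0.59. Myct1 (0.52 ± 0.15, adjusted p = 0.0692) was not called except without untreated replicate 2 (0.66). The fallers of the HSC list were Nr4a1 and Nr4a2, described with the immediate-early genes.

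Many genes of the megakaryocyte and platelet branch were higher. Of 29 tested, 12 were higher and none was lower (2.74% and 1.69% of all genes), and 17 were not called. Of these 17, 3 were lower at an unadjusted p under 0.05, as 10.8% of all genes were. The whole list took 0.0947 to 0.102% of counts in untreated and 0.126 to 0.132% in 5-FU libraries. Vwf, the von Willebrand factor of platelets and of platelet-biased HSCs, rose from 13.7, 11.8 and 14.5 CPM to 68.5, 71.7 and 64.8 CPM (2.36 ± 0.12, adjusted p = 1.18e-05). Pf4 rose from 2.69, 3.66 and 3.32 CPM to 26.5, 28.9 and 19.5 CPM (2.96 ± 0.22, adjusted p = 8.44e-05). The integrin Itga2b (CD41) rose from 34.3, 28.5 and 30.5 CPM to 81.1, 88.6 and 83.8 CPM (1.44 ± 0.10), and Selp, the P-selectin of platelet granules, from 8.99, 8.71 and 9.05 CPM to 34.8, 34.8 and 37.8 CPM (2.0 ± 0.13). All 4 separated the groups by more than the whole range within either. The tetraspanin Cd9 rose by 1.4 ± 0.16. The late platelet glycoprotein gene Gp9 stood at 0.659 CPM on average in untreated and 2.92 CPM in 5-FU libraries, which did not pass (adjusted p = 0.243).

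Several erythroid genes rose as well, many at low levels. Of 35 tested, 16 rose and none fell (2.74% and 1.69% of all genes), 19 were not called, and their share of counts went from 0.0849–0.0870% to 0.131–0.134%. Gata1, the master factor of erythroid and megakaryocytic cells, rose from 5.2, 8.08 and 4.14 CPM to 25.3, 17.2 and 15.2 CPM (1.73 ± 0.29, adjusted p = 0.00733). Its cofactor Zfpm1 (FOG1) rose from 121, 107 and 103 CPM to 262, 242 and 195 CPM (1.08 ± 0.11), and Aqp1, the water channel of red cells, from 10.8, 8.39 and 10.3 CPM to 28.4, 34.8 and 28.4 CPM (1.63 ± 0.16). The beta-globin gene Hbb-bt, which has a close copy, stood at 2.62, 2.05 and 0.773 CPM in untreated and 12.7, 7.25 and 9.26 CPM in 5-FU libraries (2.41 ± 0.43, adjusted p = 0.00908). The number of erythroid genes called higher fell to 10 without untreated replicate 1 and to 9, 7 and 9 without 5-FU replicate 1, 2 and 3.

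Some mast cell genes were higher after 5-FU. Of 15 tested members of the eosinophil, basophil and mast cell list, 7 were higher and none was lower (2.74% and 1.69% of all genes). The other 8 were not called. Gata1 and Gata2, which the stem cell or erythroid lists also hold, are 2 of the 7 and made up most of the counts of the list. Without both, which was computed after the values were seen, 5 of 13 were higher, and the share of counts went from 0.00335–0.00397% to 0.00683–0.00761%. Tpsb2, a mast cell tryptase with close copies, had 0 counts in every untreated library and 41, 74 and 40 counts in 5-FU libraries, which is at least 15-fold higher than the detection limit in untreated libraries. Il1rl1, the IL-33 receptor, rose from 2.65, 1.16 and 1.68 CPM to 6.43, 7.64 and 9.47 CPM (2.09 ± 0.35, adjusted p = 0.00719). The carboxypeptidase gene Cpa3 was called (1.04 ± 0.20, adjusted p = 0.0136), but not without 5-FU replicate 2 or 3 (1.05 and 0.99). The eosinophil granule genes Prg2 and Epx stayed under 1 CPM on average in both groups, and the basophil protease Mcpt8 gave 2.70 and 3.27 CPM (adjusted p = 0.716).

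Several B-lymphoid genes rose in LSKs after 5-FU while several lymphoid-primed genes fell. Of 21 B-lymphoid genes tested, 11 were higher and 2 lower (2.74% and 1.69% of all genes), with 8 to 10 higher without single libraries, and their share of counts went from 0.0478–0.0514% to 0.0646–0.0684%. Ebf1, the factor that specifies B cells, rose from 16.2, 17.4 and 17.8 CPM to 113, 113 and 109 CPM (2.70 ± 0.09, adjusted p = 9.12e-07). Pax5, which commits cells to the B lineage, rose from 13.7, 15.5 and 18.4 CPM to 68.3, 72.4 and 65.1 CPM (2.12 ± 0.13). The coactivator Pou2af1 rose 4.03-fold, from 6.20 ± 0.618 to 24.9 ± 2.51 CPM, and Igll1, the surrogate light chain that shares sequence with light chain genes, rose by 2.0 ± 0.35. Cd79a, the signalling subunit of the B-cell receptor, was called (1.03 ± 0.20), but not without untreated replicate 1 or 2 or 5-FU replicate 3 (1.01, 1.03 and 0.81). Against this direction, the antibody chain genes Igkc (47.7, 53.6 and 59.8 CPM to 19.7, 14.8 and 15.1 CPM, −1.70 ± 0.15) and Jchain (12.8, 14.4 and 19.2 CPM to 6.04, 3.72 and 5.15 CPM, −1.64 ± 0.25) were lower.

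Of 21 lymphoid-primed progenitor genes tested, 4 were higher and 6 lower (2.74% and 1.69% of all genes), with 3 higher in every fit that leaves a library out, and their share of counts went from 0.336–0.343% to 0.243–0.252%. Rag1, the recombinase of antigen receptor genes, rose from 16.3, 17.1 and 15.4 CPM to 130, 116 and 119 CPM (2.90 ± 0.09, adjusted p = 9.12e-07), and shares exonic sequence with B230118H07Rik. The adaptor Blnk rose from 17.8, 19.4 and 17.7 CPM to 55.5, 54.5 and 54.9 CPM (1.59 ± 0.10). In the other direction, Flt3, the receptor that marks multipotent progenitors with lymphoid potential, fell from 602, 622 and 614 CPM to 315, 326 and 308 CPM (−0.96 ± 0.04, adjusted p = 8.76e-06). Dntt, terminal transferase, fell from 686, 686 and 676 CPM to 427, 425 and 410 CPM (−0.70 ± 0.04), the chromatin organizer Satb1 from 315, 308 and 330 CPM to 157, 134 and 148 CPM (−1.12 ± 0.07), Notch1 by 0.85 on the log2 scale and the thymus-homing receptor Ccr9 from 7.67, 7.32 and 5.96 CPM to 1.29, 1.63 and 1.79 CPM (−2.15 ± 0.29, with Gm17021 on the other strand). The replicates of each group lay within narrow ranges for Rag1, Flt3 and Dntt, and no library overlapped. Of 17 T and NK cell genes tested, where 2.74% and 1.69% of all genes were called, 2 were higher (Gata3 and Tcf7) and 2 lower (Lck, −0.78 ± 0.13, and Cd28, −1.41 ± 0.20), and Cd3e and Cd3d had at most 3 counts in every library. Neither rise held throughout: without 5-FU replicate 1 no gene of that list was called higher, with log2 fold changes of 1.21 for Gata3 and 1.14 for Tcf7, neither was called without 5-FU replicate 2, where Nkg7, named after its values were seen, was the 1 gene called higher, and 1 gene was called without untreated replicate 2 or 5-FU replicate 3.

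**Figure D3:**
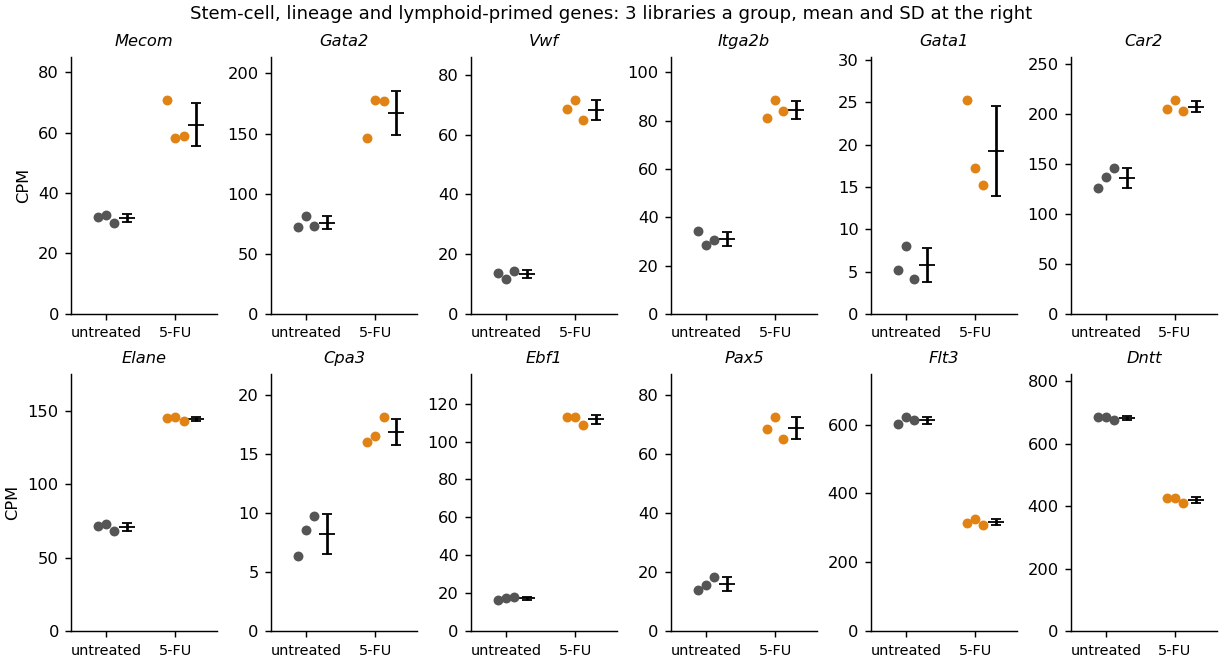
CPM of 12 genes in the 3 untreated (grey) and 3 5-FU (orange) wild-type libraries, each axis starting at 0, with the mean and SD to the right of the points. Mecom, Gata2, Vwf, Itga2b, Gata1, Car2, Elane, Cpa3, Ebf1 and Pax5 were higher in every 5-FU library, and Flt3 and Dntt lower in every one.

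Of 16 primary-granule genes of myeloid progenitors tested, 2 were higher and none lower, where 2.74% and 1.69% of all genes were, and the list took 0.407 to 0.440% of counts in untreated and 0.411 to 0.453% in 5-FU libraries. Elane, neutrophil elastase, rose from 71.9, 73.0 and 68.1 CPM to 145, 146 and 143 CPM (1.02 ± 0.07, adjusted p = 4e-05), and Ms4a3, a gene of granulocyte and monocyte progenitors, from 7.45, 9.11 and 7.69 CPM to 28.1, 30.0 and 31.9 CPM (1.89 ± 0.15). The proteases Prtn3 (0.48 ± 0.09, adjusted p = 0.0121) and Ctsg (0.44 ± 0.07, adjusted p = 0.00653) were higher in every 5-FU library but under the fold change threshold. Mpo, myeloperoxidase, stood at 2240, 2340 and 2330 CPM in untreated and 2260, 2210 and 2060 CPM in 5-FU libraries (−0.08 ± 0.04, adjusted p = 0.232). Granule genes thus moved unequally, with Elane up and Mpo not called.

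The later neutrophil genes Camp, S100a8 and S100a9 had low counts. Camp was at or under 0.125 CPM in all 6 libraries, S100a8 had 0, 17 and 0 counts in untreated and 20, 4 and 10 counts in 5-FU libraries (adjusted p = 0.801), and S100a9 had 10, 2 and 0 against 42, 24 and 32 counts (3.03 ± 1.02, adjusted p = 0.116). Cxcr2, the receptor of CXCL2, rose from 1.22, 1.12 and 1.77 CPM to 4.31, 5.50 and 6.81 CPM (2.02 ± 0.35), and Il1r2, a decoy receptor of IL-1, fell from 11.1, 15.8 and 8.14 CPM to 3.84, 2.29 and 3.24 CPM (−1.90 ± 0.32). In all, 2 of 13 tested members rose and 1 fell (2.74% and 1.69% of all genes). The second riser was Lcn2, which stood under 2 CPM in every library and was called in none of the fits that leave a library out (log2 fold changes of 2.34 to 2.68). The share of the list was 0.0231 to 0.0246% in untreated and 0.0231 to 0.0262% in 5-FU libraries.

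Of 31 monocyte and macrophage genes, 6 were higher (2.74% of all genes) and 1 lower (1.69%). Ccr2, the receptor that brings monocytes out of the marrow, rose from 83.6, 57.6 and 76.3 CPM to 148, 144 and 129 CPM (0.95 ± 0.13), and Cybb, the NADPH oxidase subunit, from 12.6, 11.3 and 10.4 CPM to 36.9, 36.4 and 26.8 CPM (1.54 ± 0.17). Csf2rb, the common beta chain of the receptors for IL-3, IL-5 and GM-CSF, rose by 0.83 ± 0.08 and its close copy Csf2rb2 by 1.34 ± 0.15. Csf1r, the M-CSF receptor, was not called (−0.39, adjusted p = 0.0606), nor were Ly6c2 (adjusted p = 0.326) and Cd68 (adjusted p = 0.224). Of 16 dendritic cell genes 1 was higher and 2 lower (2.74% and 1.69% of all genes), and their share of counts went from 0.118–0.125% to 0.0821–0.0869%. Of the 2, Runx2 fell by 0.67 on the log2 scale and Flt3 is described above. The riser, Irf4, was not called without untreated replicate 2 or 5-FU replicate 1 or 2 (log2 fold changes of 2.55, 2.26 and 2.14). The endothelial and stromal list gave 3 higher and 1 lower of 21 (2.74% and 1.69% of all genes), with Col4a1 (1.12 ± 0.14) and Col4a2 (1.42 ± 0.15), basement membrane collagen genes that overlap on opposite strands, higher and Pdgfrb (−0.81 ± 0.13) lower, and the other riser, Col1a2, lost its call in 5 of the 6 fits that leave a library out and was called without untreated replicate 3 (4.55). The share of the list was 0.0305 to 0.0324% in untreated and 0.0371 to 0.0375% in 5-FU libraries.

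Among 34 myeloid transcription factors 6 were higher and 4 lower (2.74% and 1.69% of all genes). Cebpa, which drives granulocyte commitment, stood at 67.9 and 58.6 CPM on average (adjusted p = 0.420), while Cebpb, the factor of emergency granulopoiesis, fell from 202, 212 and 198 CPM to 92.2, 94.9 and 90.1 CPM (it overlaps Tmem189 on the other strand, −1.14 ± 0.06, adjusted p = 1.8e-05). The count of risers was 3, 2 and 2 without untreated replicate 1, 5-FU replicate 1 and 5-FU replicate 2.

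Many immediate-early genes, the transcripts that cells induce within minutes of a signal without new protein synthesis, were lower at day 9. Of 43 tested, 22 fell and none rose (1.69% and 2.74% of all genes), and 21 were not called. By the adjusted p alone 31 were lower (where 4.18% of all genes were), and 42 had a log2 fold change below 0. The list took 1.73 to 1.77% of all counts in untreated and 1.15 to 1.17% in 5-FU libraries. Nr4a1, the NUR77 receptor that restrains stem cell proliferation, fell from 913, 894 and 919 CPM to 351, 342 and 337 CPM (−1.4 ± 0.04, adjusted p = 6.62e-07). Its relative Nr4a2 fell from 71.1, 80.6 and 81.4 CPM to 47.6, 34.1 and 38.6 CPM (−0.95 ± 0.13). Fos, an AP-1 subunit, fell from 1590, 1550 and 1580 CPM to 855, 919 and 851 CPM (−0.84 ± 0.04), and Klf2 from 483, 455 and 442 CPM to 172, 172 and 171 CPM (−1.42 ± 0.05). Plk2, a stress-induced polo-like kinase, fell by 1.54 on the log2 scale, Atf3 by 1.48, Fosl2 by 0.95, Klf4 by 0.87 and Socs3, the cytokine signalling inhibitor, by 0.86.

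Some of the best known members moved little. Jun went from 2540, 2530 and 2440 CPM to 2160, 2120 and 2120 CPM (−0.23 ± 0.03, adjusted p = 0.000629), without overlap and far from the fold change threshold. Egr1 stood at 702, 887 and 884 CPM in untreated and 693, 709 and 697 CPM in 5-FU libraries (−0.24 ± 0.08, adjusted p = 0.120). Myc, itself signal-induced, gave 131, 134 and 164 CPM against 130, 164 and 128 CPM (−0.03 ± 0.12, adjusted p = 0.932).

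Some inflammatory genes fell as well. Of 37 tested NF-kB and inflammatory genes, 13 were lower and 2 higher (1.69% and 2.74% of all genes) and 22 were not called, and their share of counts went from 0.318–0.321% to 0.210–0.216%. Tnfaip3 (A20), which switches NF-kB signalling off, fell from 465, 448 and 477 CPM to 170, 216 and 161 CPM (−1.34 ± 0.10), and Nfkbia, which encodes the NF-kB inhibitor IkBa, from 460, 424 and 421 CPM to 202, 216 and 216 CPM (−1.04 ± 0.06). Both are themselves NF-kB targets and are also on the immediate-early list. Ptgs2, the inducible cyclooxygenase, fell from 86.1, 90.2 and 85.2 CPM to 26.3, 23.2 and 28.5 CPM (−1.75 ± 0.10, adjusted p = 2.28e-05) and Tnf from 47.2, 47.6 and 57.6 CPM to 18.5, 13.4 and 21.4 CPM (−1.52 ± 0.18). Icam1 fell by 0.68 on the log2 scale. Nfkb1, a subunit of the factor, was not called (−0.21, adjusted p = 0.0916). The 2 that rose were Il1rl1, given with the mast cell genes, and the chemokine gene Ccl9 (0.64 ± 0.08).

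Of 22 heat-shock genes none rose and 2 fell (1.69% of all genes), 9 were lower and none higher by the adjusted p alone (4.18% and 3.77% of all genes), and 20 lay below 0. Their share of counts went from 0.955–1.03% to 0.811–0.834%. The 2 that fell were Hspa1a (34.8, 32.0 and 43.0 CPM to 12.7, 10.7 and 8.85 CPM, −1.76 ± 0.18) and Hspa1b (85.7, 81.4 and 85.6 CPM to 26.1, 27.9 and 17.7 CPM, −1.82 ± 0.16), near-identical HSP70 genes whose reads cannot be fully told apart. Hsp90aa1 was lower below the fold change threshold (−0.41, adjusted p = 0.0151). Of 35 unfolded protein and integrated stress response genes, 4 fell and 1 rose (1.69% and 2.74% of all genes). The riser was Vldlr, whose call did not hold in every fit that leaves a library out. By the adjusted p alone 9 were lower and 1 higher (4.18% and 3.77% of all genes). The share of counts went from 0.511–0.537% to 0.451–0.460%. Of the 4, Atf4, the factor that carries the integrated stress response, fell from 336, 318 and 331 CPM to 219, 207 and 202 CPM (−0.65 ± 0.05, adjusted p = 0.000156). The chaperone Hspa5 (BiP) fell by 0.43 on the log2 scale (adjusted p = 0.00208), under the threshold for size. Of 17 tested BCL2 family genes 1 rose and 1 fell (2.74% and 1.69% of all genes). The fall, which stood in every fit, was that of Bcl2l11 (BIM), a pro-apoptotic member, from 183, 213 and 245 CPM to 83.2, 57.2 and 83.6 CPM (−1.51 ± 0.16). Its pro-survival partner Mcl1 went from 732, 740 and 735 CPM to 493, 485 and 495 CPM (−0.58 ± 0.04, adjusted p = 3.13e-05), on the edge of the fold change threshold, which it passed without untreated replicate 1 or 3 or 5-FU replicate 1 or 3 (log2 fold changes of −0.59 to −0.58 over the 6 fits). The remaining riser, Bmf, lost its call in every fit that leaves a library out (0.92 to 1.18).

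Interferon-stimulated genes rose. These genes answer type I and type II interferons through STAT factors that bind the interferon-stimulated response element (ISRE), and their activation in HSCs is known to accompany infection and marrow stress. Of 66 tested, 25 were higher and none lower (2.74% and 1.69% of all genes), and 41 were not called. By the adjusted p alone 42 were higher and 1 lower, where 3.77% and 4.18% of all genes were, and 60 had a log2 fold change above 0. The list took 0.637 to 0.665% of counts in untreated and 0.892 to 0.900% in 5-FU libraries. Ifit3 rose from 15, 14.0 and 19.7 CPM to 57.9, 55.5 and 56.2 CPM (1.8 ± 0.14, adjusted p = 0.000103), and shares sequence with its copy Ifit3b. Ifit1, a binder of viral RNA, rose from 19.6, 27.0 and 22.6 CPM to 54.7, 68.5 and 65.1 CPM (1.44 ± 0.14), Slfn5 from 54.5, 52.1 and 56.4 CPM to 110, 122 and 126 CPM (1.13 ± 0.08), and the guanylate-binding protein gene Gbp7 from 121, 108 and 121 CPM to 181, 199 and 194 CPM (0.72 ± 0.07). Isg15, the ubiquitin-like modifier, stood at 16.1, 15 and 12.1 CPM in untreated and 27.8, 22.5 and 25.9 CPM in 5-FU libraries (0.82 ± 0.16, adjusted p = 0.0160), and lost its call without 5-FU replicate 1 or 3 (0.75 and 0.81). Irf7, the interferon regulatory factor, stood at 69.3, 67.8 and 67.9 against 113, 98.5 and 93.4 CPM (0.57 ± 0.09, adjusted p = 0.00474), just under the fold change threshold that it passed without 5-FU replicate 2 or 3 (0.60 and 0.63).

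The promoters of the called interferon-stimulated genes were searched for the ISRE. In RefSeq windows on GRCm38.p6 from 250 bases before to 50 after the start site, the ISRE letters, GAAA followed by any 2 bases and GAAA on either strand, were found in 11 of the 18 called genes that have a window (61.1%), and in 3.12% of the 10292 windows of all genes tested. A match of letters is a description and not a bound site. The bases before the start site of the 3 such genes with the smallest adjusted p are shown 5′ to 3′ on the plus strand, with the matched bases in capitals, for chr11:82951852-82952101, chr19:34583279-34583528 and chr19:34640639-34640888.
Slfn5: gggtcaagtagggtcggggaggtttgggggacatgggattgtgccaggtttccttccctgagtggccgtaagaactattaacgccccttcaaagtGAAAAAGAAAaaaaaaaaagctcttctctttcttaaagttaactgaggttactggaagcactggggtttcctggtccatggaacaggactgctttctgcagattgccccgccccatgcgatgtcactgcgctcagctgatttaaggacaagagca
Ifit3: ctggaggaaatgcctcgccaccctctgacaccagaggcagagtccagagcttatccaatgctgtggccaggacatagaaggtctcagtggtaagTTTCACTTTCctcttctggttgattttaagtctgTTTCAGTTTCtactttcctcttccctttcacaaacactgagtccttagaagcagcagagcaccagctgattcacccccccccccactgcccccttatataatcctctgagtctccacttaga
Ifit1: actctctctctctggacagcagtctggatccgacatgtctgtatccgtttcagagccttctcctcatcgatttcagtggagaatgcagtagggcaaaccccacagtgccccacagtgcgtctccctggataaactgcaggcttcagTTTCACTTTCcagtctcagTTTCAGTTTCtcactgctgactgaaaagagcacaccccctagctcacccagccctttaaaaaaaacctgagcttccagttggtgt
In Ifit3 and Ifit1 both matches are on the minus strand, so that TTTC stands in place of GAAA, with the same letters in both genes, while the match of Slfn5 is on the plus strand.

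The falling immediate-early genes did not share the corresponding letters of the cAMP response element. TGACGTCA was found in 1 of 20 windows of called members (5.0%) and in 3.25% of all windows. The promoter that held it was that of Plk2, shown on the plus strand for chr13:110394794-110395043 with the element in capitals.
Plk2: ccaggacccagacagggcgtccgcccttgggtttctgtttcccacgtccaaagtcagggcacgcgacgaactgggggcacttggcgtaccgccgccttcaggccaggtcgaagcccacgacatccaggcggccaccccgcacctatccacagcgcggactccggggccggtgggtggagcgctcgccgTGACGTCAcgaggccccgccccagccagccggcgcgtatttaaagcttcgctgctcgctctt
No match says only that these letters are not in this window.

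**Figure D4:**
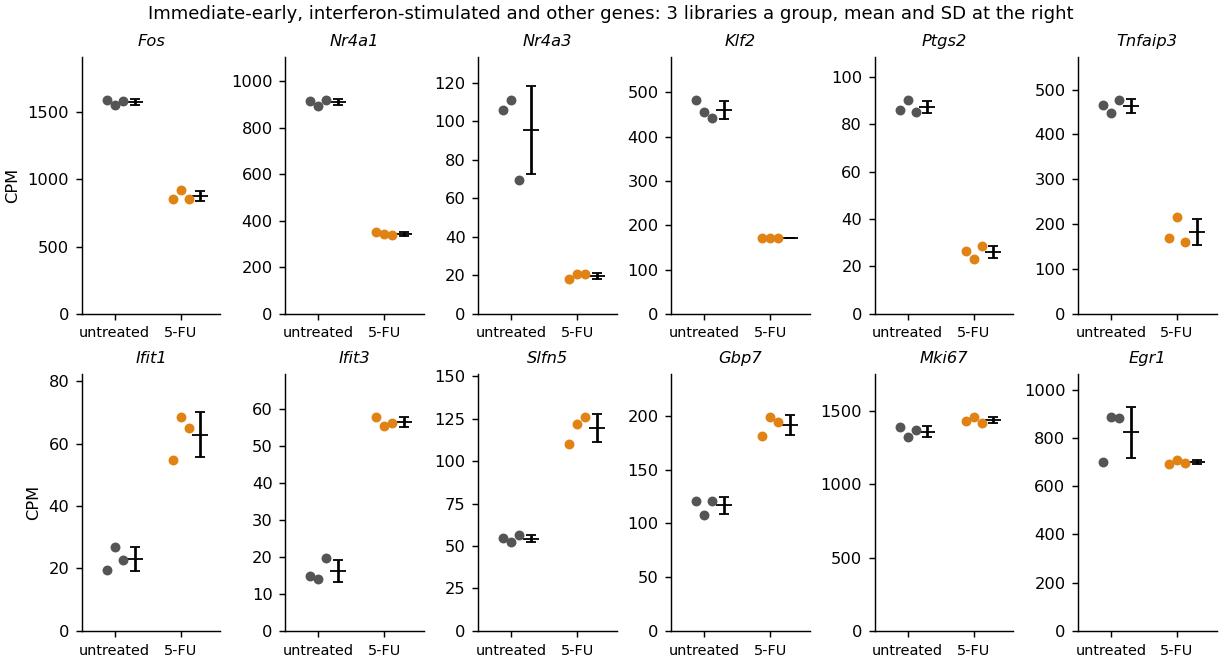
CPM of 12 genes in the 3 untreated (grey) and 3 5-FU (orange) wild-type libraries, each axis starting at 0, with the mean and SD to the right of the points. Fos, Nr4a1, Nr4a3, Klf2, Ptgs2 and Tnfaip3 were lower and Ifit1, Ifit3, Slfn5 and Gbp7 higher in every 5-FU library, while Mki67 and Egr1 were not called.

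Cell cycle genes were close to the untreated level at day 9. Of 53 S-phase genes none was called in either direction by edgeR or DESeq2, with 2 higher and 13 lower at an unadjusted p under 0.05, where 10.6% and 10.8% of all genes were. Of 64 G2/M and mitotic genes 1 was higher (Cdc25b, a phosphatase that starts mitosis) and 1 lower (Cks1b, a CDK-binding subunit), where 2.74% and 1.69% of all genes were. Neither of these held in every fit: Cdc25b was not called without untreated replicate 2 or 5-FU replicate 1 or 3 (0.63, 0.63 and 0.72), and Cks1b not without untreated replicate 2 or 3 or 5-FU replicate 2 or 3 (−0.73 to −0.57 over the 6 fits). Mki67, the Ki-67 antigen, stood at 1390, 1320 and 1370 CPM in untreated and 1430, 1460 and 1420 CPM in 5-FU libraries (0.08 ± 0.03, adjusted p = 0.170). Mcm5, a subunit of the replicative helicase, was lower by a small amount in every 5-FU library (312, 290 and 316 CPM to 248, 255 and 245 CPM, −0.30 ± 0.05, adjusted p = 0.0110), and so was Top2a (−0.23 ± 0.04, adjusted p = 0.00757). The shares of counts of the S-phase list (0.634 to 0.643% against 0.613 to 0.615%) and the G2/M list (0.759 to 0.765% against 0.743 to 0.757%) were slightly lower after 5-FU, in ranges that do not overlap.

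Of 18 CDK inhibitors and quiescence genes 1 rose and 2 fell (2.74% and 1.69% of all genes). By the adjusted p alone 6 were lower and 1 higher (4.18% and 3.77% of all genes). The median log2 fold change was −0.28, or −0.14 without untreated replicate 3. The share of counts of the list was 0.236 to 0.243% in untreated and 0.207 to 0.212% in 5-FU libraries. Cdkn1a (p21), a p53 target that stops the cycle, fell from 145, 146 and 164 CPM to 90.4, 84.5 and 95.7 CPM (−0.74 ± 0.08, adjusted p = 0.000631) and the antiproliferative Tob1 from 42.5, 38.8 and 41.5 CPM to 18.2, 20.5 and 17.8 CPM (−1.12 ± 0.12). Txnip, an inhibitor of thioredoxin that is abundant in resting HSCs, rose from 79.7, 85.1 and 81.0 CPM to 143, 128 and 137 CPM (0.73 ± 0.07). Cdkn1c (p57), the inhibitor tied to HSC dormancy, stood at 1.54, 1.96 and 2.27 CPM against 4.04, 3.49 and 1.54 CPM, with overlap (0.65 ± 0.44, adjusted p = 0.459). Cdkn1b (p27) gave 91.1, 95.1 and 40.4 CPM in untreated and 45.4, 44.0 and 40.2 CPM in 5-FU libraries, so that untreated replicate 3 alone lay with the treated libraries and the gene, not called with all 6 libraries except by the edgeR exact test, was called without it (−0.81 ± 0.27, adjusted p = 0.110, and −1.11 without it).

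Few damage and drug-target genes were called at this time. Of 32 p53 target genes none rose and 2 fell (Cdkn1a and Plk2), where 2.74% and 1.69% of all genes did. Mdm2 stood at 71.0 and 61.5 CPM on average (adjusted p = 0.309). Of 40 DNA repair genes of the Fanconi and homologous recombination pathways 1 was called higher and none lower (2.74% and 1.69% of all genes). This gene, Rad52, was called in no fit that leaves a library out (0.67 to 0.84). None of 51 fluoropyrimidine and nucleotide metabolism genes was called by edgeR, with 4 higher and 15 lower at an unadjusted p under 0.05 (10.6% and 10.8% of all genes) and 1 called higher by DESeq2. Tyms, the enzyme that 5-FU blocks, gave 36.8 and 37.4 CPM on average (0.02, adjusted p = 0.95), and Umps, which turns 5-FU into its nucleotide form, 113 and 92.5 CPM (−0.29, adjusted p = 0.0424). Of the 51, 5 were lower by the adjusted p alone and none higher (4.18% and 3.77% of all genes).

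Most genes of the translation machinery had a log2 fold change below 0, with small medians. Of 64 ribosome biogenesis genes none was called by edgeR or DESeq2 with the fold change threshold, 25 were lower at an unadjusted p under 0.05 (10.8% of all genes), 11 were lower and none higher by the adjusted p alone (4.18% and 3.77% of all genes), and 53 had a log2 fold change below 0, with a median of −0.15. Ncl, nucleolin, fell from 3030, 2960 and 2980 CPM to 2510, 2550 and 2590 CPM (−0.23 ± 0.02, adjusted p = 0.000397). Of 79 cytosolic ribosomal protein genes 72 lay below 0 (median −0.15), and 12 were lower by the adjusted p alone (4.18% of all genes). The ribosomal protein list took 2.47 to 2.56% of counts in untreated and 2.35 to 2.38% in 5-FU libraries. Ribosomal protein genes have many processed copies, and their single values are uncertain. The 2 called lower, Rpl15 and Rpl28, lost their calls in 5 and 4 of the 6 fits that leave a library out, and neither was called without 5-FU replicate 2 (−1.16 and −0.61).

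Protein-coding transcripts of the mitochondrial genome were lower, while none of the nuclear genes of the respiratory chain was called. All reads of that genome together did not separate the groups, at 9.42 to 10.2% of counts in untreated and 9.47 to 9.66% in 5-FU libraries. All 13 protein-coding mitochondrial genes had a log2 fold change below 0, with a median of −0.41. By the adjusted p alone 11 were lower (4.18% of all genes), but only 1 passed the fold change threshold as well (1.69% of all genes). The complex I gene mt-Nd1 fell from 941, 1050 and 989 CPM to 708, 736 and 756 CPM (−0.44 ± 0.05, adjusted p = 0.000684), and mt-Cytb of complex III from 1270, 1490 and 1580 CPM to 1080, 1070 and 1100 CPM (−0.41 ± 0.07). The call of mt-Nd3 was lost without 5-FU replicate 2 (−0.72), and 3 and 2 genes of the list were called without untreated replicate 1 and 5-FU replicate 3. The 13 genes together took 1.11 to 1.25% of counts in untreated and 0.965 to 0.992% in 5-FU libraries. Of 76 nuclear genes of oxidative phosphorylation none was called by edgeR or DESeq2, and 40 lay above and 36 below 0 (median 0.02). At an unadjusted p under 0.05, 8 of them were higher and 4 lower, where 10.6% and 10.8% of all genes were.

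Most metabolic and housekeeping lists held few calls. Among 25 glycolysis genes none rose and 1 fell (2.74% and 1.69% of all genes). It was the glucose transporter Slc2a1 (47.2, 48.7 and 47.6 CPM to 25.5, 30.7 and 34.0 CPM, −0.67 ± 0.12), whose call was lost without 5-FU replicate 1 (−0.57) and beside which another gene was called without 5-FU replicate 2 or 3. None of 25 cholesterol synthesis genes, 41 lysosome genes, 36 proteasome subunits or 12 MHC class II genes was called by edgeR or DESeq2 with the fold change threshold. By the edgeR adjusted p alone these lists held 2, 1, 0 and 1 genes, and at an unadjusted p under 0.05 they held 5, 10, 4 and 3, where 21.5% of all genes passed. Of 34 antioxidant genes 2 were higher and none lower (2.74% and 1.69% of all genes). They were the metallothionein Mt1 (7.95, 6.25 and 7.14 CPM to 15.3, 13.5 and 14.7 CPM, 1.02 ± 0.19) and Gpx3, a plasma glutathione peroxidase whose 5-FU libraries gave 14.5, 24.7 and 0.415 CPM and which was called in only 1 of the 6 fits that leave a library out (3.78 to 5.71). Of 45 histone genes 5 were higher and none lower (2.74% and 1.69% of all genes), and 14 were higher and 1 lower by the adjusted p alone (3.77% and 4.18% of all genes). Their share of counts went from 0.603 to 0.675% in untreated to 0.777 to 0.817% in 5-FU libraries. The genes called included the linker histone H1f0 at 38.3, 32.9 and 33.0 CPM against 71.0, 77.8 and 71.2 CPM (1.08 ± 0.10) and Hist1h1d at 349, 312 and 290 against 544, 530 and 511 CPM (0.74 ± 0.07). Histone genes are close copies of each other, many have transcripts without a poly-A tail, and 3 of the list were called without untreated replicate 3. Of 13 imprinted growth-control genes tested, Grb10, an adaptor that dampens growth factor signalling, rose from 13.9, 9.69 and 9.24 CPM to 42.2, 34.7 and 41.7 CPM (1.85 ± 0.19), and Igf2r was lower (−0.63 ± 0.11), a call lost without untreated replicate 3 (−0.57). H19 and Igf2 were under 1 CPM on average in both groups and were not tested.

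Adhesion and receptor genes moved both ways. Of 36 homing and niche adhesion genes 5 were higher and 4 lower (2.74% and 1.69% of all genes), the latter count falling to 2 without untreated replicate 2. Itga6, the laminin receptor subunit, rose from 59.9, 54.5 and 42.9 CPM to 109, 97.4 and 103 CPM (0.97 ± 0.12), and Cd44, the hyaluronan receptor, fell from 327, 348 and 404 CPM to 155, 167 and 170 CPM (−1.14 ± 0.08, adjusted p = 6.75e-05). Cxcr4, through which HSCs are held in the marrow by CXCL12, was not called (71.9 and 63.8 CPM on average, adjusted p = 0.308). Of 33 cytokine receptors and signalling inhibitors 5 were higher and 4 lower, against the same shares of all genes. Besides Flt3, Socs3 and Lif, the kinase gene Pim1 fell from 639, 614 and 630 CPM to 394, 408 and 414 CPM (−0.63 ± 0.04). The number called higher went to 3 without untreated replicate 1, untreated replicate 2 or 5-FU replicate 3, and to 2 without 5-FU replicate 1 or 2. Csf3r, the G-CSF receptor, stood at 129 and 125 CPM on average (adjusted p = 0.727). Of 22 genes for the sort gate and for surface markers of stem and multipotent cells, 5 were higher and 1 lower (2.74% and 1.69% of all genes), with 2 higher without untreated replicate 1 or 5-FU replicate 3 and 3 without 5-FU replicate 1. Their share of counts was lower after 5-FU, at 0.280 to 0.299% against 0.241 to 0.246%.

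The wild-type response was set beside that of *Tespa1*-/- LSKs by testing whether the effect of 5-FU depended on genotype in a fit of all 12 libraries, in which the CPM values below were also scaled. Of 18696 genes tested, 936 (5.01%) passed the adjusted p. Among the 20 genes with the largest wild-type rises and falls, chosen in wild-type libraries that also enter this fit, 7 passed. Tespa1 itself, a regulator of T-cell receptor and calcium signalling, was not changed by 5-FU beyond the threshold in wild-type LSKs (50.1, 43.2 and 46.8 CPM against 47.4, 55.4 and 57.8 CPM, 0.20 ± 0.11, adjusted p = 0.348). Libraries labelled *Tespa1*-/- still held 34.6 to 35.0 CPM of its transcript when untreated and 17.3 to 20.9 CPM after 5-FU, and reads on the gene outside the deleted part would be counted too. Cops6, which encodes the CSN6 subunit of the COP9 signalosome, was not called in wild-type LSKs (0.11 ± 0.10, adjusted p = 0.615), and Jmjd1c, a histone demethylase gene, was lower by a small amount (−0.39 ± 0.05, adjusted p = 0.00153).

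The myeloid genes Elane and S100a9 and the proliferation marker Mki67 were among those that passed. Mki67, not called in wild-type LSKs, went in *Tespa1*-/- LSKs from a mean of 1330 to 2070 CPM (wild-type response minus *Tespa1*-/- response −0.57 ± 0.04, adjusted p of the interaction 1.49e-06). Elane rose from 70.8 to 144 CPM in wild-type and from 119 to 472 CPM in *Tespa1*-/- LSKs (−0.96 ± 0.08). S100a9 went from 0.149 to 1.30 CPM in wild type and from 1.12 to 316 CPM in *Tespa1*-/- LSKs (−5.2 ± 1.01, adjusted p = 0.00891). Flt3 fell in both, from 611 to 315 CPM and from 494 to 170 CPM, and less so in wild type (0.59 ± 0.06). Nr4a1 fell from 906 to 342 CPM in wild type and from 364 to 212 CPM in *Tespa1*-/- LSKs, where the untreated level was already lower (−0.62 ± 0.08).

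Other parts of the wild-type response did not pass that test. Chst3 (0.03 ± 0.37), Pf4 (0.25 ± 0.25), Gata1 (−0.16 ± 0.33), Lef1 (−1.07 ± 0.35), Mecom (0.32 ± 0.18) and Egr1 (−0.03 ± 0.10) had adjusted p values of the interaction from 0.105 to 0.983, although Lef1 passed with DESeq2 (adjusted p = 0.0214). These intervals leave room for differences, and a p above the threshold does not show that the genotypes responded alike. Myc, at means of 143 and 140 CPM in wild type, went from 193 to 139 CPM in *Tespa1*-/- LSKs (0.45 ± 0.16, adjusted p = 0.130).

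**Figure D5:**
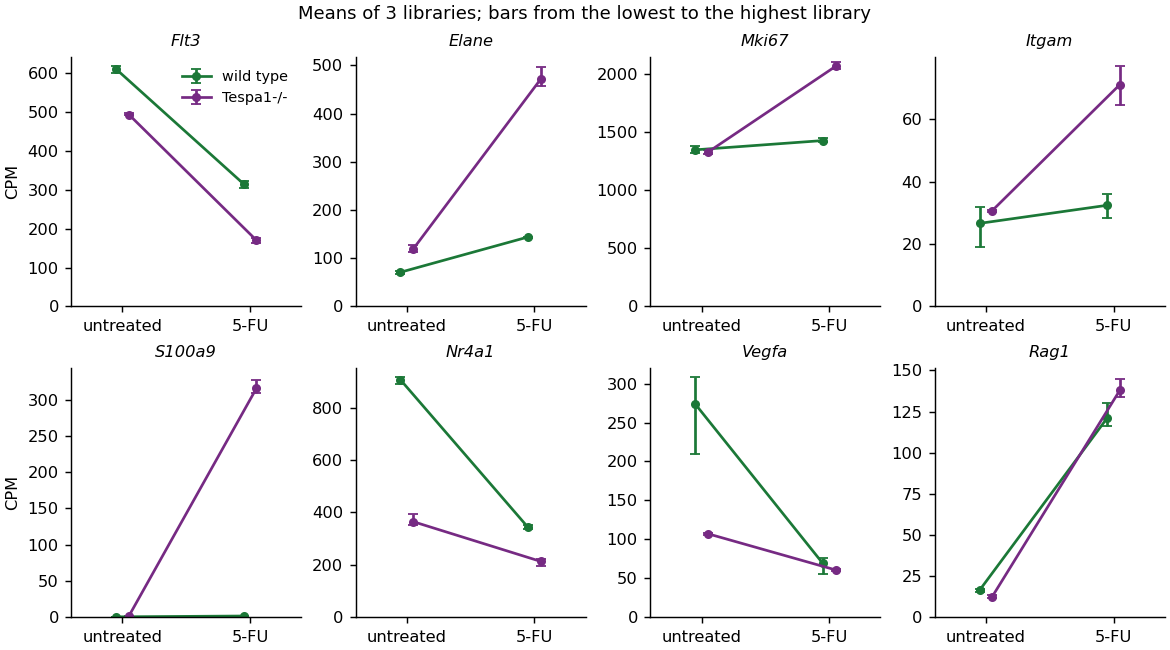
Mean CPM of 8 genes in untreated and 5-FU libraries of wild-type (green) and *Tespa1*-/- (purple) LSKs, with bars from the lowest to the highest of 3 libraries and each axis starting at 0. The lines part after 5-FU for Elane, Mki67, Itgam and S100a9, which rose more in *Tespa1*-/- LSKs, and start apart for Nr4a1 and Vegfa, which were higher in untreated wild-type LSKs.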

How the data were processed

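LSKs were sorted from male mice, and RNA above the study's integrity limit was made into poly-A selected, stranded paired-end libraries. The deposited table holds read counts per gene that the authors did not normalise, beside FPKM values that the authors derived from their reads and that were not used here. The submitters' processing notes name CASAVA 1.8, HISAT2, StringTie, edgeR and the build GRCm38 without roles, and whether counting used the strand is not given in the sources used here, so reads of genes that overlap on opposite strands may be shared.

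Genes were kept with filterByExpr (minimum count 10) and scaled by TMM, and the 6 wild-type libraries were compared with the quasi-likelihood test of edgeR 4.0.16 (R 4.3.3) with Benjamini-Hochberg adjustment over all genes tested. SE was the log2 fold change divided by the root of the test statistic. The genotype comparison fitted 12 libraries with an interaction term. With 3 libraries against 3, an exact permutation test of a single gene cannot go below p = 0.1, so single genes rest on the fit across all genes. The steps were tested on simulated data. Counts set the precision: 3 counts are the detection limit.

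Named genes were the 10 largest rises and falls with a mean of at least 5 CPM and no overlap, the defining members of each list with up to 4 called members per direction, and a short list of genes of the study. Members and lists were chosen with earlier results of these data known. Promoter windows came from RefSeq (GRCm38.p6) and were searched for the ISRE, CRE, E2F, CHR and CCAAT letters. Alternatives were DESeq2 1.42.0, the edgeR exact test, other scaling, filters and thresholds, a replicate block and leaving out each library. Replicate numbers did not pair the samples. Some genes that this rule names are not reported here.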

Additional observations from a re-analysis of the deposited data

Results flagged for a closer look

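The response to 5-FU differed between wild-type and *Tespa1*-/- LSKs for 18 of the 43 genes compared (the 20 largest wild-type changes and the genes of the study), by the interaction term of the edgeR fit of 12 libraries. Of all 18696 genes tested, 936 (5.01%) passed. The 20 were chosen for their size in wild-type libraries that also enter this fit, so the 18 cannot be read against that share. With DESeq2, Hlf (adjusted p = 0.0489), Lef1 (0.0214) and Nr4a2 (0.0328) passed as well. Values are the wild-type log2 response minus the *Tespa1*-/- one. Among myeloid genes it was −0.96 for Elane, −0.29 for Mpo, −0.93 for Itgam, −7.28 for S100a8 and −5.2 for S100a9, each with the larger rise or the only rise of the mean in *Tespa1*-/- LSKs. S100a8 stood at means of 0.252 and 0.45 CPM in wild type and 0.441 and 130 CPM in *Tespa1*-/- LSKs. Among signalling genes it was −0.62 for Nr4a1, −1.08 for Nr4a3, −1.2 for Cxcl2, −2.41 for Lif, −1.17 for Vegfa and −0.49 for Cdkn1a. For all 6 of them the untreated mean was higher in wild type, as with Vegfa at 274 against 107 CPM.

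Among lymphoid genes the value was −0.58 for Rag1, −1.37 for Vpreb3 and 0.59 for Flt3. It was −0.57 for Mki67, 0.27 for Kit and 1.05 for Tespa1. Zfp990 gave 8.32, with 0.208 and 17.3 CPM in wild type and 55.2 and 14.1 CPM in *Tespa1*-/- LSKs, so that the untreated libraries of the genotypes differed more than those after 5-FU. With the replicate block, Kit (adjusted p = 0.056), Lif (0.0781) and Vpreb3 (0.0598) were no longer past the edgeR threshold.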

How the results depend on the processing

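No gene called with 6 libraries was called in the other direction under any alternative run. DESeq2 called 674 genes higher and 408 lower, the exact test 672 and 395, RLE factors 469 and 289, and library totals 533 and 253. An unadjusted p with more than 1.5-fold change gave 1077 and 602, the adjusted p alone 641 and 711, and more than 2-fold 296 and 143. Leaving out 1 library gave 289 to 410 higher and 213 to 283 lower genes. Genotype-dependent genes numbered 936, or 1535 by DESeq2 and 742 with the replicate block. Same-numbered libraries did not deviate together (correlations 0.0177, 0.0042 and −0.00755), and the replicate block gave 351 higher and 227 lower genes and kept 558 of 753 calls. Myc, not called, changed sign: 0.02 with library totals, and −0.15 to 0.08 without single libraries. Tyms, not called, ranged from −0.08 to 0.12 without single libraries. Library totals shifted the median of all genes to 0.06. The median log2 fold change of a list moved by more than its spread between libraries for 20 of 40 lists with library totals and for 9 to 13 without single libraries.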

Other observations

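Some transcripts outside the lists stood out and were chosen after their values were seen. Rpph1, the RNA of RNase P, which has no poly-A tail, stood at 4430, 3780 and 4730 CPM in untreated and 11800, 11100 and 13300 CPM in 5-FU libraries (log2 fold change 1.48 ± 0.08 SE, edgeR adjusted p = 1.92e-05). Alb, the albumin gene of hepatocytes, had 0.215, 44.0 and 117 CPM in untreated and 0.471, 0 and 0.125 CPM in 5-FU libraries, so that untreated replicate 1 overlapped with the treated libraries, and it was called in only 1 of the 6 fits made without single libraries. Of immunoglobulin genes, Ighg3 had 5.09, 8.93 and 3.28 CPM in untreated libraries and 0 counts in every 5-FU library, at least 46.3-fold lower against the detection limit (edgeR adjusted p = 0.00102). Igkv14-126 went from 4.73, 5.49 and 3.69 CPM to 0, 0.194 and 0.249 CPM (edgeR adjusted p = 0.00368). Variable-region genes are close copies of each other and share reads.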
